A study of Mus musculus with 23 samples.

Results

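The stefin A cluster was described across marrow-depleted mouse bone through its 4 named genes, Stfa1 (gene ID 20861), Stfa2 (20862), Stfa3 (20863), and Stfa2l1 (268885). Members were found by their symbol among the 17644 genes with TPM values (transcript levels scaled to transcript length and to the library total) and were matched to the count table by gene ID. All 4 were present in both, and all 4 passed the filter for testing (10 counts or more in 5 mice or more), as did 14364 genes in all. The members had been selected on their rise with type 1 diabetes (T1D) in wild-type (WT) mice of these same data, so the members' values from WT mice are a description and carry no test. Other genes are tested in both genotypes.

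RNA-Seq had been performed on femur and tibia of 1 hind limb, with the marrow spun out, from 23 female C57BL6/N mice at 11 weeks of age, with 1 library per mouse. There were 5 WT Control mice and 6 mice each in WT T1D, KO Control, and KO T1D, where KO stands for global knockout of Sarm1, the gene of an NAD-degrading enzyme of axons. T1D had been induced by intraperitoneal streptozotocin, a toxin of pancreatic β cells, at 100 mg/kg and had lasted for 3 weeks, and Control mice had received saline. For the study as a whole, KO and WT littermates came from heterozygous pairs, and WT mice were also bought. Whether any of the WT mice sequenced here were bought is not stated, so genotype and source may not be fully separate. Sarm1 transcripts ranged from 0.08 to 0.62 TPM in WT libraries and from 0.08 to 0.47 TPM in libraries labelled KO, with 5 to 32 counts per mouse in all 23, so the transcript level did not separate the genotypes. Counts over a whole gene do not show which exons are transcribed, and KO below means libraries labelled KO.

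Stefins are small cytosolic proteins that bind reversibly in the active site of papain-like cysteine proteases, among them cathepsins B, H, L, and S, and block them. They belong to the type 1 cystatins, which lack a signal peptide, whereas the type 2 cystatins such as cystatin C are secreted. The mouse carries an expanded group of stefin A genes in place of the single human CSTA gene, and several of them are known as transcripts of neutrophils and of their precursors in marrow. Stfa1, Stfa2, and Stfa3 are stefin A1, A2, and A3, and Stfa2l1 is named for its likeness to stefin A2.

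The members lay on chromosome 16 of GRCm38.p6 within 298.6 kb. Stfa2l1 (chr16:36156811-36161948) and Stfa1 (chr16:36277148-36285371) were on the plus strand, and Stfa2 (chr16:36403946-36408363) and Stfa3 (chr16:36450537-36455392) were on the minus strand. The RefSeq annotation placed 20 genes in this interval, counting the outermost members, of which 11 were protein coding. Only 6 of the 20 had enough counts to be tested, namely the 4 members, Gm5483 (RefSeq name Cstdc4, cystatin domain containing 4), and BC100530 (Cstdc5).

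The promoters of the members are shown because the genes were described together and their upstream sequence was also alike. RefSeq sequence of GRCm38.p6 was found for 4 of 4 members, and the 120 bases before each annotated start are given 5′ to 3′ on the gene's strand. Capitals mark GAGGAG (overlapping copies run together), AGATAA, and TTTAAA.
Stfa2l1, chr16:36156691-36156810, plus strand: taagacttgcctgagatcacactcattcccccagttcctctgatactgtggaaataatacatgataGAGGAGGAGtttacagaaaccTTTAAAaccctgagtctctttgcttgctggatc
Stfa2, chr16:36408364-36408483, minus strand: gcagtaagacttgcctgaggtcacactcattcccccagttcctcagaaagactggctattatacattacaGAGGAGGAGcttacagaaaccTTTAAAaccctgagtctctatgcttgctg
Stfa1, chr16:36277028-36277147, plus strand: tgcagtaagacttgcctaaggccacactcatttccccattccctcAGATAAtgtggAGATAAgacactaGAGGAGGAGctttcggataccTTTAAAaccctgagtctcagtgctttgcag
Stfa3, chr16:36455393-36455512, minus strand: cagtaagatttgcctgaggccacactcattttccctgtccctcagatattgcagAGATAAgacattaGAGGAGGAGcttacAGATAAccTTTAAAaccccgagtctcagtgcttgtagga

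Over the 250 bases before the start, pairs of members were from 80.4% identical, for Stfa2 and Stfa3, to 89.4% identical, for Stfa2 and Stfa2l1. TTTAAA, a form of the TATA-type element, began 29 to 33 bases before the start in all 4 members and was present on either strand in 12.1% of 32851 RefSeq windows of the same length. TATAAA was in 0 of the 4 windows and in 12.4% of all windows. GAGGAG was present in all 4 members as overlapping copies 47 to 54 bases before the start, and in 28.7% of all windows. AGATAA, which contains the letters that GATA factors read, was present in 2 copies each before Stfa1 and Stfa3, was not in these letters before Stfa2 or Stfa2l1, and was present in 9.99% of all windows. These motifs were picked after the sequences had been read, on both strands, and a match describes letters and not a bound site.

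The members were also alike in the transcripts themselves, which bears on how reads were divided between them. The coding sequences of Stfa2 and Stfa2l1 were 96.4% identical, those of Stfa3 were 80.9% and 81.6% identical to these, and the longer coding sequence of Stfa1 was from 59.0% to 62.0% identical to the other members. Of the 100-base windows of each transcript, the length of a read, 35.6% in Stfa2l1, 30.6% in Stfa2, and 39.5% in Stfa1 differed by at most 2 bases from a transcript of another gene of the cluster. No window of Stfa3 did so. Windows identical to a transcript of another gene of the cluster were 1.93% in Stfa1 and 0% in Stfa2, Stfa2l1, and Stfa3. How the authors' counting divided reads from near-identical windows was not tested, so single-gene values of Stfa1, Stfa2, and Stfa2l1 are uncertain to an unknown degree. The sum of the members avoids this only where the other gene is a member. BC100530, which is not in the sum, was 74.2% identical to Stfa1 in coding sequence.

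The libraries held from 16938101 to 20135592 counts each. Most mouse IDs began with A36 to A39, but WT Control mouse A1757 and WT T1D mice A1764, A1787, and A1758 had IDs of an A17 series, and the labels do not say what sets the series apart. In WT T1D mice A3905 and A3906, 12 osteoblast and osteocyte genes summed to 2042 and 1700 TPM, with none of the 12 at 0, against 37000 to 76200 TPM in WT Control and 37510 to 83230 TPM in the 12 KO mice. In WT Control, Bglap, encoding osteocalcin, alone reached 17030 to 33635 TPM, against 335 and 237 TPM in these mice, but not all of the 12 genes were low there. Mepe, an osteocyte gene, was 127 and 128 TPM in these mice against 49.0 to 118 TPM in WT Control, and Sost, encoding sclerostin, was 61.0 and 73.0 TPM against 57.8 to 127 TPM. Erythroid transcripts were also highest in these mice, at 473100 and 471900 TPM summed over 14 genes. The WT fold changes of the stefins, of the other genes named, and of the lists are therefore also given without A3905 and A3906, and the part of these differences in the stefin values was not tested.

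Stfa2l1 was by far the most abundant member. In WT Control mice, its level was 155, 91.0, 76.3, 114, and 77.3 TPM in A1757, A3767, A3903, A3904, and A3907. In WT T1D mice, it was 149, 126, 162, and 115 TPM in A1764, A1787, A1758, and A3909, and 639 and 283 TPM in A3905 and A3906. Thus 3 of 6 WT T1D mice exceeded every WT Control mouse, and 2 of these did so by a wide margin. KO Control mice ranged from 72.3 to 125 TPM with a median of 96.5 TPM, and KO T1D mice ranged from 77.0 to 184 TPM with a median of 132 TPM. In the KO groups, 3 of 6 T1D mice exceeded every Control mouse and the other 3 lay within the Control range. Group means were 102.7 ± 32.8 TPM (SD, n = 5), 246 ± 202 (SD, n = 6), 98.6 ± 17.3 (SD, n = 6), and 134 ± 44.3 TPM (SD, n = 6) for WT Control, WT T1D, KO Control, and KO T1D.

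Stfa2 showed the largest relative difference of the 4 members in either genotype. Its level was 4.64, 1.91, 2.76, 5.34, and 3.03 TPM in WT Control mice A1757, A3767, A3903, A3904, and A3907. In WT T1D, A1764, A1787, A1758, and A3909 had 9.71, 12.3, 9.60, and 5.13 TPM, and A3905 and A3906 had 126 and 43.7 TPM. Hence 5 of 6 WT T1D mice were above the highest WT Control mouse, the lowest of these at 9.60 TPM. In KO Control mice, Stfa2 ranged from 1.20 to 4.57 TPM with a median of 3.69 TPM. In KO T1D mice, it was 14.4, 15.3, and 14.2 TPM in A3681, A3682, and A3683, and 4.42, 3.49, and 4.98 TPM in A3674, A3675, and A3676. The KO T1D group was therefore split, with 4 of 6 mice above every KO Control mouse, 3 of them close together between 14.2 and 15.3 TPM.

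The same 3 KO T1D mice, A3681, A3682, and A3683, were the highest of their group for Stfa2l1, at 159, 174, and 184 TPM against 77.0 to 106 TPM in the other 3. They were not set apart for Stfa1, where A3674 had 7.74 TPM, nor for Stfa3, where A3683 had 1.39 TPM. The late neutrophil genes described below also summed highest in A3681, A3682, and A3683, at 59730, 66270, and 77960 TPM. The other 3 had 45520 to 58280 TPM, so A3681 was only just above them. In KO Control, A3679 and A3680 had late neutrophil sums of 68450 and 68150 TPM but the lowest Stfa2. A3670, A3672, and A3673 had lower sums, at 50100 to 53730 TPM, with Stfa2 at 3.50 to 4.57 TPM. A3766 was high for both, at 79490 TPM and 4.55 TPM. Mouse IDs were consecutive within each set of KO T1D mice, and the labels do not say what this means. The grouping was seen in the values and was not tested.

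Stfa1 was low in all groups apart from the WT T1D mice A3905 and A3906. WT Control mice had 2.20, 9.79, 3.06, 1.88, and 0.71 TPM in A1757, A3767, A3903, A3904, and A3907, which is the widest relative range of any member in WT Control. WT T1D mice A1764, A1787, A1758, and A3909 had 6.79, 4.94, 6.96, and 6.15 TPM, all above 4 of the 5 WT Control mice but below A3767, and A3905 and A3906 had 61.5 and 27.1 TPM. KO Control mice ranged from 2.44 to 5.32 TPM (median 4.14) and KO T1D mice from 2.66 to 7.74 TPM (median 6.90), with 4 of 6 KO T1D mice above every KO Control mouse.

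Stfa3 was the least abundant member, with 3 to 90 counts per mouse, so that it is also the least precise. WT Control mice had 0.87, 1.70, 1.56, 2.16, and 2.17 TPM in A1757, A3767, A3903, A3904, and A3907. WT T1D mice A1764, A1787, A1758, and A3909 had 3.57, 2.01, 2.02, and 1.61 TPM, and A3905 and A3906 had 15.6 and 6.55 TPM. Apart from A1764, A3905, and A3906, the WT T1D mice lay inside the WT Control range. KO Control (0.71 to 3.46 TPM, median 1.35) and KO T1D (0.89 to 4.59 TPM, median 1.53) overlapped, and A3682 alone exceeded every KO Control mouse.

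**Figure D1:**
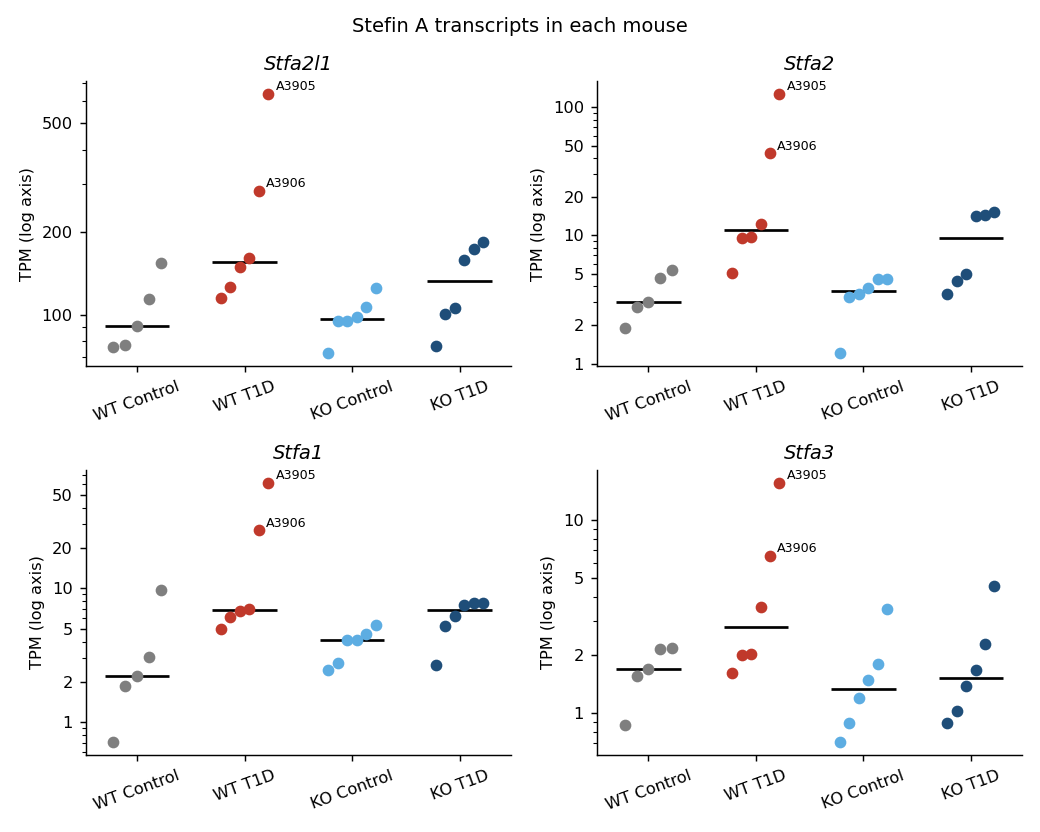
TPM of Stfa2l1, Stfa2, Stfa1, and Stfa3 (log axes) in each of the 23 mice, by group; points are mice and lines are group medians. WT T1D mice A3905 and A3906 have the highest levels of all 4 genes, up to 639 TPM for Stfa2l1, and the KO T1D mice fall in 2 sets for Stfa2, at 14.2 to 15.3 TPM and at 3.49 to 4.98 TPM.

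Added up, the 4 members reached 111 ± 33.0 TPM (SD, n = 5) in WT Control, 304 ± 277 TPM (SD, n = 6) in WT T1D, 108 ± 18.6 TPM (SD, n = 6) in KO Control, and 151 ± 51.5 TPM (SD, n = 6) in KO T1D. The Control groups were thus close, at medians of 104 and 105 TPM, and did not differ beyond their spread. The order of the group medians was WT T1D at 175 TPM, KO T1D at 150 TPM, and then both Control groups, and the neighbouring T1D groups overlapped between 128 and 207 TPM, which held 4 of 6 WT T1D and 3 of 6 KO T1D mice. With all mice, the ratio of T1D to Control means was 2.73 in WT. Without A3905 and A3906, the WT T1D mean was 156 TPM (range 128 to 180 TPM), and the ratio was 1.397 in WT and 1.404 in KO. The near-equality of these ratios holds for TPM, which depends on all other transcripts of a library. On normalized counts without A3905 and A3906, the summed log2 difference was 0.68 in WT and 0.48 in KO. Whether the genotypes differ in this was not tested. Of the 4 WT T1D mice then left, 3 were of the A17 series, at 169, 145, and 180 TPM, beside 162 TPM in A1757, the 1 WT Control mouse of that series, while A3909 had 128 TPM beside 83.2 to 124 TPM in the other WT Control mice. The ratio in WT without A3905 and A3906 thus rests on an uneven mix of ID series. WT T1D mice exceeded every WT Control mouse in 4 of 6 cases, and KO T1D mice exceeded every KO Control mouse in 3 of 6.

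The share of Stfa2 in the sum was higher in most WT T1D mice than in WT Control. Stfa2l1 made up 87.2% to 95.3% of the sum in WT Control, 89.96% to 95.03% in KO Control, and 86.3% to 90.8% in KO T1D. In WT T1D, it made up 86.8% to 89.9% in 4 mice but 75.8% in A3905 and 78.5% in A3906, where Stfa2 made up 15.01% and 12.1% of the sum. Stfa2 also made up 5.73%, 8.44%, and 5.32% in A1764, A1787, and A1758, and 4.02% in A3909. The share of Stfa2 was 1.83% to 4.32% in WT Control and 1.16% to 5.69% in KO Control, and its median in KO T1D was 5.63%. Stfa3 stayed between 0.496% and 2.61% of the sum in all 23 mice. Stfa2 and Stfa2l1 had no identical 100-base window in common but held windows within 2 bases of another gene of the cluster. The part of read assignment in these shares was not tested.

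**Figure D2:**
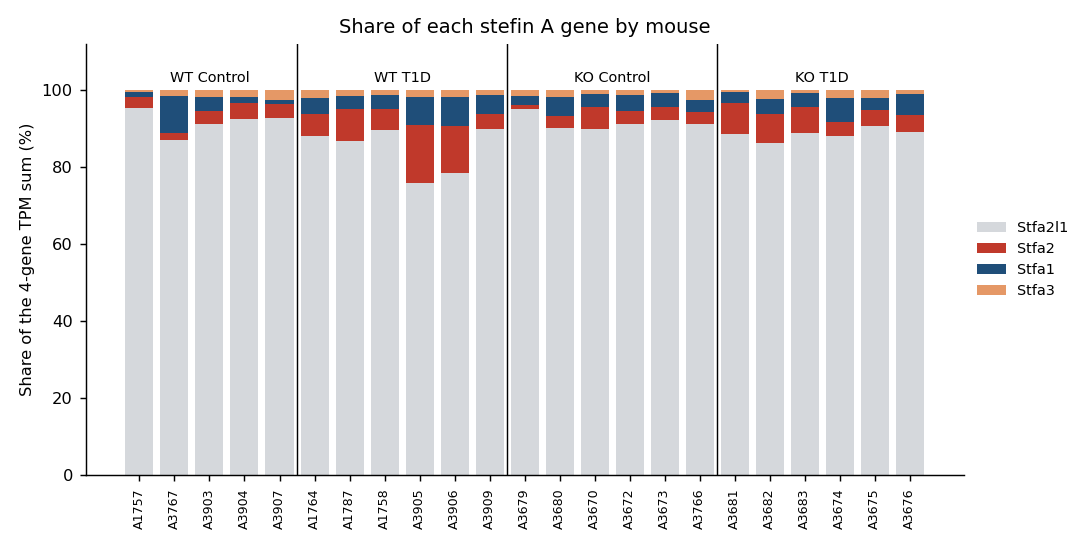
Share of each member in the 4-gene TPM sum (%), 1 bar per mouse, ordered by group. Stfa2l1 makes up most of each bar, and its share is lowest in WT T1D mice A3905 (75.8%) and A3906 (78.5%), where the shares of Stfa2 are 15.01% and 12.1%.

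Fold changes were estimated on the counts with edgeR's quasi-likelihood model over all 23 mice. In WT mice, which had chosen the members, T1D against Control gave log2 fold changes of 3.69 (SE 0.76) for Stfa2, 2.85 (SE 0.68) for Stfa1, 2.02 (SE 0.61) for Stfa3, and 1.61 (SE 0.41) for Stfa2l1. Of all genes tested in WT, 2.33% passed a Benjamini-Hochberg adjusted p of 0.05 in edgeR (334 of 14364, 215 higher and 119 lower with T1D), and Stfa1, Stfa2, and Stfa2l1 but not Stfa3 were among them, from which nothing is read since this contrast chose them. These estimates leaned on single mice. Without A3905, they were 2.52 for Stfa2, 1.91 for Stfa1, 1.20 for Stfa3, and 0.97 for Stfa2l1, and without both A3905 and A3906 they were 1.55 (SE 0.46), 1.01 (SE 0.47), 0.62 (SE 0.49), and 0.59 (SE 0.24). On the log2(TPM + 1) scale, all WT mice gave 2.15, 1.80, 0.89, and 1.00 for Stfa2, Stfa1, Stfa3, and Stfa2l1. On this scale single high mice weigh less, and the added 1 also shrinks differences at low TPM. With log2(TPM + 0.1), the values were 2.40, 2.18, 1.14, and 1.01. TPM also depends on all other transcripts of a library. For the sum of the members, the log2 difference in WT was 1.39 on normalized counts and 1.13 on log2(TPM + 0.1). Leaving out WT Control mouse A3767 moved the edgeR estimate of Stfa1 to 3.68. Within A36 to A39 mice, where A3905 and A3906 were 2 of 3 WT T1D mice, the estimates were 4.66 for Stfa2, 3.53 for Stfa1, 2.54 for Stfa3, and 2.42 for Stfa2l1.

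In KO mice, a contrast that had not chosen the members, none of the 4 passed the threshold. The log2 fold changes with T1D were 1.46 (SE 0.70) for Stfa2, 0.71 (SE 0.63) for Stfa1, 0.48 (SE 0.38) for Stfa2l1, and 0.39 (SE 0.60) for Stfa3. The edgeR adjusted p was 1.00 for each, with unadjusted p values of 0.0484, 0.273, 0.213, and 0.519. Among all genes tested in KO mice, 0% passed (0 of 14364, with 452 at an unadjusted p under 0.05), and DESeq2 also called 0, with 436 at an unadjusted p under 0.05. The values for Stfa2 ranged from 1.27 without A3682 to 1.63 without A3675 over the fits that lacked 1 mouse each. Stfa3 fell to -0.04 without A3682, the KO T1D mouse with its highest level. The KO test shared its estimate of spread with the WT mice, A3905 and A3906 among them, so its p values were not independent of these mice. Without A3905 and A3906, the KO estimates were 1.46, 0.71, 0.48, and 0.39 for Stfa2, Stfa1, Stfa2l1, and Stfa3. Unadjusted edgeR p values were then 0.0014, 0.0912, 0.0330, and 0.379, and the adjusted p was 0.995 for each. For each of the 4 genes, the KO estimate lay within 1 SE of the WT estimate made without A3905 and A3906.

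The difference between the genotypes in the T1D change (KO minus WT) was -2.23 (SE 1.02) for Stfa2, -2.14 (SE 0.92) for Stfa1, -1.62 (SE 0.86) for Stfa3, and -1.13 (SE 0.55) for Stfa2l1 on the log2 scale. It shares the WT mice that chose the members and is given without a test. Of all 14364 genes, 0% passed for this interaction in edgeR, with 1467 at an unadjusted p under 0.05, and DESeq2 called 0 with 1495 at an unadjusted p under 0.05.

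The other stefin genes of the cluster that could be tested were Gm5483 and BC100530, whose counts are likewise uncertain. Of their 100-base windows, 54.0% and 45.6% were within 2 bases of another gene of the cluster, and 11.1% and 13.1% were identical to one. Gm5483 was 21.2, 8.21, 10.6, 8.57, and 6.94 TPM in WT Control mice A1757, A3767, A3903, A3904, and A3907, and 71.1 and 27.5 TPM in A3905 and A3906 against 13.3 to 14.9 TPM in the other 4 WT T1D mice. BC100530 was 0.67 to 5.36 TPM in WT Control, 47.9 and 21.2 TPM in A3905 and A3906, and 1.68 to 4.63 TPM in the other 4. Their log2 fold changes in WT were 1.56 (SE 0.46, edgeR adjusted p = 0.0613) and 2.99 (SE 0.82, adjusted p = 0.0514), so neither passed the threshold. Without both mice, these were 0.48 (SE 0.32, adjusted p = 0.618) and 0.76 (SE 0.62, adjusted p = 0.699). In KO, they were 0.54 (SE 0.43) and 0.39 (SE 0.81), with adjusted p of 1.00 for each.

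The remaining protein-coding genes between the outermost members had few or no reads. 2010005H15Rik (Csta2) had 0 to 30 counts per mouse, Gm5416 (Csta3) 0 to 6, BC117090 (Cstdc6) 0 to 2, and Cstdc3 and Gm7260 had 0 in every mouse. The counts of BC117090 came only from A3905 and A3906, with 2 in each. Outside the cluster, the nearest tested genes were Ccdc58, a mitochondrial protein gene, with a WT log2 fold change of -0.01 (SE 0.19, adjusted p = 0.98), and Casr, the calcium-sensing receptor, with -0.30 (SE 0.77, adjusted p = 0.861, 0 to 41 counts).

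**Figure D3:**
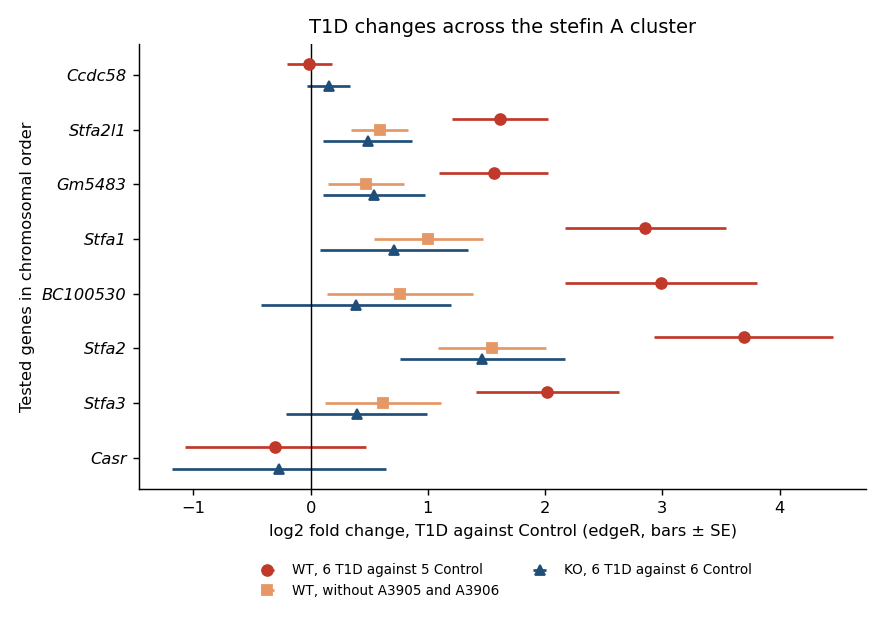
log2 fold change of T1D against Control from edgeR (points) ± SE (bars) for the 6 tested stefin genes and the nearest tested gene on each side, in chromosomal order; values without A3905 and A3906 are drawn for the stefin genes only. All 6 stefin estimates in WT fall toward the KO estimates without these mice, for instance from 3.69 to 1.55 for Stfa2 against 1.46 in KO, and Ccdc58 and Casr lie at -0.01 and -0.30 in WT.

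How alike the members were over the 23 mice was described by correlation of log2(CPM + 0.5), with no test, since the mice include those that chose the genes. Stfa2 and Stfa2l1 had Pearson r = 0.949 and Spearman ρ = 0.860, and had 0.826 and 0.816 over 21 mice without A3905 and A3906. Stfa2l1 and Gm5483 were similar, at 0.945 and 0.854 with all mice and 0.836 and 0.808 without the pair. Stfa1 and Stfa3 had r = 0.833 and ρ = 0.473 with all mice but 0.301 and 0.308 without, so most of their likeness lay in A3905 and A3906. The part of shared reads in the likeness of Stfa2 and Stfa2l1 was not tested.

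Of 25 other stefin and cystatin genes listed, 9 were tested, the cluster genes Gm5483 and BC100530 and 7 genes outside the cluster. In edgeR, 0 of the 9 passed the threshold in WT (2.33% of all genes), in KO (0%), or for the interaction. In DESeq2, 2 of the 9 passed in WT, where 1002 of all genes passed. Outside the cluster, 0 of 7 had an unadjusted p under 0.05 in WT in edgeR, where 3195 of all 14364 genes did, so little is read from so few genes. The median log2 fold change of the 7 was 0.06 in WT, -0.03 in WT without A3905 and A3906, and 0.00951 in KO, beside a median of -0.01 in WT and -0.00157 in KO for all genes. Cstb, the gene of stefin B, the ubiquitous type 1 cystatin, was at 62.7 TPM on average in WT Control and had a WT log2 fold change of 0.08 (SE 0.14, adjusted p = 0.772). Cst3, encoding cystatin C, was at 911 TPM in WT Control with 0.06 (SE 0.10, adjusted p = 0.742). Cst7, encoding cystatin F of leukocytes, had 0.19 (SE 0.15, adjusted p = 0.473), and Cst6, encoding cystatin M/E, had 0.40 (SE 0.77, adjusted p = 0.805). The kininogen genes Kng1 and Kng2 had -0.07 and -0.05. Without A3905 and A3906, the values were -0.09 for Cstb, -0.06 for Cst3, 0.07 for Cst7, 0.65 for Cst6, 0.10 for Kng1, and -0.14 for Kng2. Fetub, encoding the cystatin-family plasma protein fetuin B, had -0.60 (SE 0.57, adjusted p = 0.559) with all mice and -0.03 (SE 0.30) without A3905 and A3906, and its level in A3905 and A3906 was 0.00594 and 0.0107 times the WT Control median, opposite to the stefins.

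The cysteine cathepsins, the proteases that stefins inhibit, were not called higher with T1D. Of 10 genes tested, 1 was lower with T1D in WT and 0 were higher, where 2.33% of all genes passed, and 0 passed in KO, where 0% of all genes did. The gene that passed was Ctsc, encoding cathepsin C, which activates the serine proteases of neutrophil granules, at -0.39 (SE 0.10, edgeR adjusted p = 0.0494). Ctss, encoding cathepsin S of antigen-presenting cells, had -0.29 (SE 0.08, adjusted p = 0.0571), and Ctsw, encoding cathepsin W of cytotoxic lymphocytes, had -0.44 (SE 0.13, adjusted p = 0.0585). Ctsb was at 1228 TPM in WT Control with 0.08 (SE 0.07, adjusted p = 0.555), and Ctsk, encoding the collagen-degrading protease of osteoclasts, was at 457 TPM with -0.03 (SE 0.27, adjusted p = 0.963). The median over the 10 was -0.10 in WT and -0.07 in KO. Without A3905 and A3906, where 0 of all genes tested passed, the values were -0.30 (SE 0.11) for Ctsc, -0.24 (SE 0.09) for Ctss, -0.50 (SE 0.14) for Ctsw, 0.08 (SE 0.08) for Ctsb, and -0.67 (SE 0.20) for Ctsk, and the median was -0.14. The edgeR adjusted p of Ctsk was then 0.288. Summed, the cathepsins were 1994 to 2601 TPM in WT Control and 1702 to 2219 TPM in WT T1D. These sums also depend on erythroid transcripts, whose median sum was 292000 TPM in WT Control and 401300 TPM in WT T1D.

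Because stefin A genes are known from neutrophils, markers of the cells that bone without marrow can still hold were set beside them. In a bulk sample, a change in the number of cells of a type and a change in RNA per cell cannot be told apart. Late neutrophil genes, which encode secondary granule and cytosolic proteins, summed to 53730 to 68070 TPM in WT Control, 46030 to 71820 TPM in WT T1D, 50100 to 79490 TPM in KO Control, and 45520 to 77960 TPM in KO T1D, with none of the 20 at 0. In edgeR, 0 of 20 passed in either genotype (2.33% of all genes in WT and 0% in KO). In WT, 3 of the 20 had an unadjusted p under 0.05, as did 3195 of all 14364 genes. Their log2 fold changes in WT ran from -0.10 to 0.65 with a median of 0.19 over the 20. The largest were Retnlg, encoding resistin-like gamma, at 0.65 (SE 0.27, adjusted p = 0.157), Chil3, encoding chitinase-like 3, at 0.53 (SE 0.24, adjusted p = 0.207), and Ifitm6 at 0.52 (SE 0.26, adjusted p = 0.238). Without A3905 and A3906, these were 0.01 (SE 0.18), -0.07 (SE 0.14), and -0.10 (SE 0.16), and the median of the 20 was -0.09. Among A36 to A39 mice alone, 9 of 20 passed in WT. That fit keeps A3905 and A3906 and called 2211 of all genes in WT, so its count is not read against 2.33%.

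In A3905 and A3906, the members stood further from WT Control than any late neutrophil gene listed. The members had been chosen on their rise in WT T1D mice, so this contrast was in part fixed in advance. It is a description, and nothing about neutrophil content is read from it. Relative to the WT Control median TPM, Stfa2 was 41.7 and 14.4 times, Stfa1 27.96 and 12.3 times, Stfa3 9.19 and 3.85 times, and Stfa2l1 7.02 and 3.11 times. For the 20 late neutrophil genes, the values ran from 0.748 (Csf3r) to 2.18 (Retnlg) in A3905 and from 0.789 (Csf3r) to 2.18 (Retnlg) in A3906. S100a8 and S100a9, encoding calprotectin, were 1.19 and 1.27 times in A3905, and Ly6g, the defining surface antigen of neutrophils, was 1.06 times. These are TPM ratios, and TPM depends on all other transcripts of a library. Erythroid genes summed to 473100 and 471900 TPM in A3905 and A3906 against a median of 292000 TPM in WT Control. This lowers the TPM ratios of the members and of the late neutrophil genes alike.

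**Figure D4:**
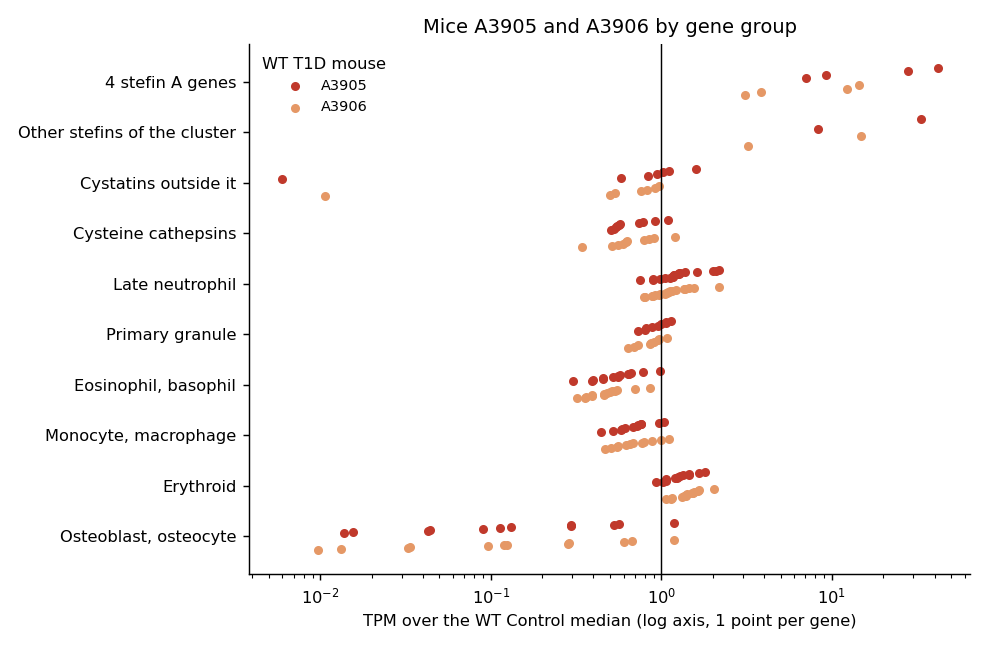
TPM of single genes in WT T1D mice A3905 and A3906 over the WT Control median (log axis, 1 point per gene) by gene group; a line marks 1. The 4 members, which had been chosen on their rise in WT T1D mice, lie at 3.11 to 41.7. Late neutrophil genes lie between 0.748 and 2.18, and several osteoblast and osteocyte genes, such as Col1a1 at 0.0427 and 0.0325, far below 1. TPM of every gene also depends on erythroid transcripts, which were highest in these mice.

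Expressed per 1000 TPM of the late neutrophil sum, the 4 members came to 1.44 to 2.58 TPM in WT Control, 2.12 to 11.7 TPM in WT T1D, 1.51 to 2.16 TPM in KO Control, and 1.73 to 3.05 TPM in KO T1D. The medians were 1.70, 3.62, 1.66, and 2.65 TPM. On this scale, WT T1D mice A1764, A1787, and A1758 also exceeded every WT Control mouse, at 3.32, 2.79, and 3.92 TPM, whereas A3909 did not, at 2.12 TPM. These values are a description too, since the members had been chosen on WT T1D mice. Over the 23 mice, the stefin sum and the late neutrophil sum had Pearson r = 0.404 and Spearman ρ = 0.353, and 0.272 and 0.229 without A3905 and A3906, given as a description.

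**Figure D5:**
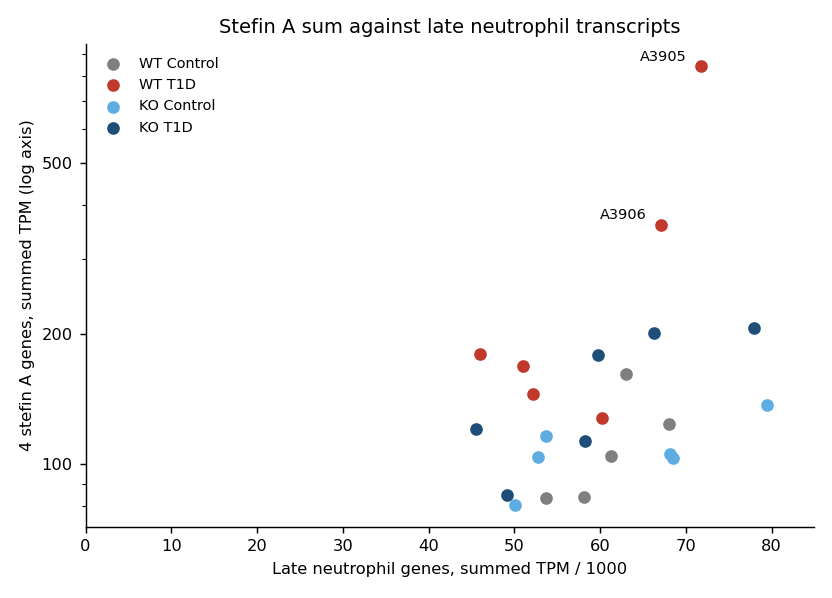
Summed TPM of the 4 members (log axis) against the summed TPM of 20 late neutrophil genes (divided by 1000), 1 point per mouse, coloured by group. A3905 and A3906 lie within the range of other mice on the horizontal axis and above all of them on the vertical axis, at 843 and 360 TPM.

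Other cell types are read against the 2.33% of all genes called in WT. Primary granule genes of neutrophil precursors had 0 of 9 called and a median log2 fold change of 0.12 in WT, with Elane, encoding neutrophil elastase, at 0.30 (SE 0.19, adjusted p = 0.359). Their sum was 4356 to 7268 TPM in WT Control and 4767 to 5811 TPM in WT T1D. Regulators of granulopoiesis had 0 of 15 called and a median of 0.18, with Cebpb at 0.37 (SE 0.15, adjusted p = 0.137) and Spi1, encoding PU.1, at 0.27 (SE 0.14, adjusted p = 0.261). Eosinophil and basophil genes had 0 of 14 called and a median of -0.21, and monocyte and macrophage genes 0 of 12 and -0.14. Erythroid genes had 7 of 14 higher in WT, with a median of 0.62, among them Hbb-bs, a beta globin gene, at 0.89 (SE 0.20, adjusted p = 0.0367), and their sum was 288200 to 371500 TPM in WT Control and 336200 to 473100 TPM in WT T1D. Osteoblast and osteocyte genes had 2 of 12 lower and a median of -0.74. The 2 were Ibsp at -0.78 (SE 0.15, edgeR adjusted p = 0.0236) and Runx2 at -0.66 (SE 0.16, adjusted p = 0.0451). Col1a1, at -0.91 (SE 0.49, adjusted p = 0.282), was not called. Without A3905 and A3906, the median log2 fold changes in WT were 0.03 for primary granule genes, -0.02 for regulators of granulopoiesis, -0.12 for eosinophil and basophil genes, -0.15 for monocyte and macrophage genes, 0.41 for erythroid genes, and -0.38 for osteoblast and osteocyte genes. Single genes were at 0.17 (Elane), 0.31 (Cebpb), 0.06 (Spi1), 0.60 (Hbb-bs), -0.62 (Ibsp), -0.42 (Runx2), and -0.37 (Col1a1). In that fit, as in KO, 0 of all genes tested passed, so the loss of calls says nothing particular to these lists. The part of these cell types in the stefin values was not tested.

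Skin, where stefin A is also known, left little signal. Of 14 keratinocyte genes, 3 had enough counts to be tested and 0 passed, and Krt14, Krt15, Flg, Dsg1a, and Sprr1b were at 0 counts in every mouse. The summed level of the listed genes was 1.80 to 3.88 TPM in WT Control and 1.41 to 5.59 TPM in WT T1D, with 2.18 and 2.45 TPM in A3905 and A3906.

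The genes whose levels over the 23 mice were most like the summed members were ranked by Spearman ρ among 13296 genes with a mean of at least 1 CPM, leaving out the stefin and cystatin genes. The closest were Scnn1a, encoding the alpha subunit of the epithelial sodium channel (ρ = 0.878), Rxylt1, encoding a glycosyltransferase of dystroglycan (0.842), and Mrgpra2b, encoding a Mas-related G protein-coupled receptor (0.825), followed by Psen2, Aaas, Nfe2, Serinc3, Eif4ebp1, Spn, and Eif2ak1 at 0.821 to 0.802. Scnn1a stayed at 0.842 without A3905 and A3906 and was 23.6 and 30.5 TPM there, within 19.7 to 30.5 TPM for WT T1D and above 14.9 to 22.7 TPM for WT Control, so its range was far narrower than that of the stefins. After the mean of each group was subtracted, the closest were Alox5ap (0.934), Asprv1 (0.933), Alox5 (0.923), Cd300lf (0.904), and Acvrl1 (0.881). Alox5 and Alox5ap encode 5-lipoxygenase and its activating protein, the pair that starts leukotriene synthesis in granulocytes. Asprv1, encoding a retroviral-like aspartic protease, was 82.1 and 73.6 TPM in A3905 and A3906 against 11.45 to 13.95 TPM in WT Control, which is the same direction as the stefins in these mice. With all mice, its log2 fold change was 1.85 in WT, between Stfa2l1 at 1.61 and Stfa3 at 2.02, and 0.04 in KO. A rise of this size in WT was therefore not particular to the stefins. No value without A3905 and A3906 is given for Asprv1. Alox5 was 62.8 and 47.9 TPM there against 49.3 to 59.6 TPM in WT Control. These correlations share the mice, their depth, and the 2 high libraries, and carry no test.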

How the data were processed

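RNA-Seq libraries of 23 mice, 1 per mouse, were grouped by genotype and treatment from the sample labels. The authors deposited expected counts per gene, estimated with RSEM and rounded to whole numbers, and the provider's TPM values. The reads (paired-end, stranded, poly(A)-selected) had been cleaned with SOAPnuke and mapped to GRCm38.p6 (HISAT, Bowtie2), and how RSEM divided reads between paralogs is already part of the values. TPM values were used for levels and counts for tests. Genes reaching 10 counts in 5 mice or more (14364) were fitted with edgeR 4.0.16 in R 4.3.3 (TMM normalization, quasi-likelihood test, 1 mean per group), with Benjamini-Hochberg adjustment over all of them and a threshold of 0.05. Standard errors were taken from the fold change and its F statistic. The alternatives used DESeq2 1.42.0, limma 3.58.1 on log2(TPM + 1) or log2(TPM + 0.1), other size factors, no filter, A36 to A39 mice only, no A3905 and A3906, and each mouse left out in turn. The procedure was tested on simulated data. Intervals were not computed, and 16938101 to 20135592 counts per mouse limit the precision of genes with few counts, such as Stfa3.

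Named genes were the members, every tested stefin or cystatin gene, the 3 largest changes in WT of each other list, the genes between the outermost members and the nearest tested neighbours, Sarm1, and the 10 and 5 genes most like the members. Other genes were named after their values were seen. The members and gene lists were chosen with earlier results of these data known. Promoter sequence came from RefSeq (GRCm38.p6) and transcripts from GENCODE for the same build. Protein sequences were not used here.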

Additional observations from a re-analysis of the deposited data

Results flagged for a closer look

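In 7 of 28 groups checked, 1 mouse stood further from the rest of its group than Dixon's 95% critical value allows. Chance flags about 1 group in 20 where groups are independent, but 5 of the 7 cases were 1 library, A3905, so the counts are not comparable, and the members had been selected on values of WT T1D mice. The cases are given as a description. Mouse A3905 was the highest of WT T1D for Stfa2 (126.45 TPM), Stfa3 (15.63 TPM), Stfa2l1 (638.98 TPM), the 4-gene sum (842.58 TPM), and Gm5483 (71.13 TPM). Of these genes, Stfa2, Stfa2l1, and Gm5483 hold windows near-identical to another gene of the cluster. Mouse A3767 was the highest of WT Control for Stfa1, at 9.79 TPM, while its Stfa2 level of 1.91 TPM was the lowest of that group. Mouse A1757 was the highest of WT Control for Gm5483, at 21.21 TPM, and also for Stfa2l1. For Stfa1 in WT T1D, no mouse was set apart in this way, with A3906 at 27.11 TPM between A3905 at 61.52 TPM and the others.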

How the results depend on the processing

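The 4 members stayed on the same side of the threshold in KO mice in all 120 alternatives (lowest adjusted p 0.995) and kept their direction in 119; Stfa3 turned to -0.04206 without KO T1D replicate A3682. Over the left-out mice, its log2 fold change ranged from -0.04206 to 0.7281. The summed log2 difference was 1.39 in WT and 0.48 in KO. In all 58 alternatives, it moved by less than the SD of the T1D group in the main fit, 1.19 in WT and 0.499 in KO. That limit is wide and says little, since the SD in WT was 0.30 without A3905 and A3906, and the SD in KO exceeded the difference itself. In WT, the difference ran from 0.68 without A3905 and A3906 to 2.16 in A36 to A39 mice. In KO, it ran from 0.38 to 0.62 over the left-out mice. With the 4 members added up and fitted as 1 gene, single members had no value.

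The count of genes called in WT, 334, depended on the setting: 88 with no filter, 1002 with DESeq2, 5154 and 5173 with limma on log2(TPM + 1) and log2(TPM + 0.1), 2211 in A36 to A39 mice, and 0 without A3905 and A3906. Leaving out 1 mouse gave 0 (without A3767 or A3907) to 1262 (without A3909), and 22 of the 23 left-out mice, KO mice among them, moved the count by over 1.5 times. For the interaction, limma on log2(TPM + 1) called 2. Late neutrophil genes called in WT were 2 with either limma setting and 9 in A36 to A39 mice. Cathepsin genes called in WT were 0 with no filter or without A3905 and A3906, 3 with DESeq2, 7 with either limma setting, and 0 to 2 with 1 mouse left out. Other stefin and cystatin genes were 2 with DESeq2, with either limma setting, and in A36 to A39 mice, and 0 to 2 with 1 mouse left out. The cause of these changes was not tested, apart from fewer mice in the fits that leave some out. No paired analysis was possible because no mouse number was shared between groups. At a depth of 16938101 counts or more, genes with few counts, such as Stfa3, were limited most.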
